A study of Homo sapiens with 6 samples.

Results

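Tg sites of the chromosome 1 interior are the listed positions of thymidine glycol (Tg) on chromosome 1 whose midpoint lies at least 5 Mb from both chromosome ends on build hg38. They numbered 1051 of 9373 sites in the double-knockout list and 363 of 3688 sites in the wild-type list. The rule uses position and no measured value. The double-knockout cells carry the genotype NTHL1-/-,NEIL1-/- and the wild-type cells carry both genes intact. Both are HEK293T, an established human embryonic kidney line, and neither was treated. Tg was captured by DPC-Seq, in which added NTHL1 protein removes the damaged base from sheared genomic DNA and is locked onto the DNA at that spot, so that the bound fragments can be pulled down and sequenced. Each genotype had 2 labelled libraries and 1 input library but only 1 site list. No value below therefore has a spread between replicates, and no test between genotypes was possible. Every interval covers counting error or the scatter over sites only. The labels do not say whether the knockout is 1 clone.

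Tg forms when an oxidant attacks the double bond of thymine. It distorts the helix and stalls replicative polymerases. NTHL1 and NEIL1 are DNA glycosylases that cut oxidised pyrimidines out of DNA, the opening step of base excision repair. With both lost, other enzymes of the same family remain. Human chromosome 1 is the longest chromosome, with a large block of repeated satellite DNA below its centromere on the long arm.

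Near the 5 Mb limit of the short arm, the innermost double-knockout site outside lay at chr1:4946515-4947004 with 14 reads, and the outermost site inside at chr1:5008288-5009099 with 19 reads. The wild-type sites in the same places lay at chr1:4749769-4750204, in AJAP1, with 11 reads, and at chr1:5387204-5387828 with 15 reads. On the long arm the nearest site outside the limit was the same place in both lists, chr1:243998552-243999115 with 35 reads in the double knockout and chr1:243998565-243999089 with 20 reads in wild type. The nearest sites inside it were over 1 Mb away in both lists.

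Tg sites entered the windows around gene starts about as often as their density and width would give. RefSeq promoter windows, taken as 250 bases before to 50 bases after each annotated start, were crossed by a site in 11 of 3343 cases in the double knockout (0.329%) and in 3 of 3343 in wild type (0.0897%). Sites of these widths at the mean density would cross 0.364% and 0.115% of the windows. The windows crossed were 12 in all, of which 6 belong to protein-coding genes. VANGL1, a membrane protein of planar cell polarity, and LOC105378764, an uncharacterised locus, were crossed in both lists. The windows of PIK3R3, a regulatory subunit of phosphoinositide 3-kinase, BCL9, a co-activator of Wnt signalling, and RGS8, a regulator of G-protein signalling, were crossed in the double-knockout list alone. These 5 of the 12 windows are shown 5′ to 3′ on the strand of the gene, from RefSeq on GRCh38.p14. Sites entered each of them, but only the PIK3R3 site reached the annotated start itself. Capitals mark bases that lie inside a Tg site of either list. The windows are VANGL1 at chr1:115641720-115642019 (plus strand), LOC105378764 at chr1:60924531-60924830 (minus strand), PIK3R3 at chr1:46174852-46175151 (minus strand), BCL9 at chr1:147541251-147541550 (plus strand) and RGS8 at chr1:182672189-182672488 (minus strand).
VANGL1: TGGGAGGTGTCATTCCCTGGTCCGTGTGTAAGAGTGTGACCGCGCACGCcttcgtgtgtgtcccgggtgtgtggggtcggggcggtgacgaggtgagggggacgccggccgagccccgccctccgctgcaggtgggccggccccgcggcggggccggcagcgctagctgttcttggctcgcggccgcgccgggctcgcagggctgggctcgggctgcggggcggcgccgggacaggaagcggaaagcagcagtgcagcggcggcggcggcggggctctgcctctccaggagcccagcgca
LOC105378764: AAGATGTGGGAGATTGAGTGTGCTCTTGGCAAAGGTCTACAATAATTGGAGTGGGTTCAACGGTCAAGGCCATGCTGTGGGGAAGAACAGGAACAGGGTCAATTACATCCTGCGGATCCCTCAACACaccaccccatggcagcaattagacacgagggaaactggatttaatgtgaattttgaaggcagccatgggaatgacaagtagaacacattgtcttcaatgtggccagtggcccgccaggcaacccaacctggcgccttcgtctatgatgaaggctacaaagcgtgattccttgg
PIK3R3: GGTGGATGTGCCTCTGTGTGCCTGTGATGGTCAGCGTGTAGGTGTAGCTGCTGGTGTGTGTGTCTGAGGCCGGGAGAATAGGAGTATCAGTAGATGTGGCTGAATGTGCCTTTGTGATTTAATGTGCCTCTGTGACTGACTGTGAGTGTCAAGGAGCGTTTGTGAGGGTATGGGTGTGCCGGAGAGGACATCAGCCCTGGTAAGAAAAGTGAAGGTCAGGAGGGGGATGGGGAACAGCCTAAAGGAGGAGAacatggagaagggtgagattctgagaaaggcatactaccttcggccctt
BCL9: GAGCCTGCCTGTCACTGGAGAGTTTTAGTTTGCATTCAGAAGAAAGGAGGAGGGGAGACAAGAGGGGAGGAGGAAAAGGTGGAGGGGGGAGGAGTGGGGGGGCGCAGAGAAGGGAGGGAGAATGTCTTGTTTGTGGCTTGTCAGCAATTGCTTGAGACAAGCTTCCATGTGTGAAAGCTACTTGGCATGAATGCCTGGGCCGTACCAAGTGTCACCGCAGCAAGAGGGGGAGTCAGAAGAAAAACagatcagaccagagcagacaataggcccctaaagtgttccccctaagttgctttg
RGS8: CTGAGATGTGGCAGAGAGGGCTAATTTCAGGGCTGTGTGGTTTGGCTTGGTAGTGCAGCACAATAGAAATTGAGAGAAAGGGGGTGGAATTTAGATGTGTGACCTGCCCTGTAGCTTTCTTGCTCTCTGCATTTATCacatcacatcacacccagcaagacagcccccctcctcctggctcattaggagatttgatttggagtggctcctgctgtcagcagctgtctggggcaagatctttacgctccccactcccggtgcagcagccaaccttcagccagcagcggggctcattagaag

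The VANGL1 site, with 26 reads in the double knockout and 15 in wild type, reached only the upstream edge of its window, 21 bases of it in the double knockout and 49 in wild type. That edge lies before the stretch dense in CG dinucleotides, of which the window holds 38. At BCL9 a site of 18 reads and 6.95-fold enrichment took in 245 of the 300 bases, nearly the whole upstream part. The RGS8 site, with 31 reads and 8.45-fold enrichment, covered 137 bases farthest from the start. The PIK3R3 site, of 26 reads, covered 251 bases and at the same time 236 bases of the window of TSPAN1, a tetraspanin gene transcribed the other way, so these windows are not separate observations. The LOC105378764 window was entered by 127 bases of a double-knockout site of 27 reads and by 70 bases of a wild-type site of 12 reads. Of the 12 windows crossed, 11 had a GC content below the median of all windows, 58.3%. Likewise 11 of the 12 held fewer CG dinucleotides than the median of 14, VANGL1 being the exception in both counts. The remaining protein-coding window, that of RAB13, a small GTPase, was crossed by 5 bases of a wild-type site. None of the 124 RefSeq miRNA hairpins of the interior was touched by a site of either list.

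More Tg sites were listed in the double knockout than in wild type, and the interior of chromosome 1 held more sites per Mb than the interiors of the other chromosomes pooled. The number of interior sites was 2.90 times higher in the double knockout (95% interval 2.57 to 3.27). Over the rest of each list the ratio was 2.50 (2.40 to 2.61), over the interiors of the other autosomes and X 2.87 (2.74 to 3.01), and over the 71 double-knockout and 32 wild-type sites within 5 Mb of the ends of chromosome 1 it was 2.22 (1.44 to 3.48). The interior ratio thus fell within the interval of the other interiors. The interior made up 11.2% of the double-knockout list (10.6 to 11.9) and 9.84% of the wild-type list (8.90 to 10.8). The depth of the libraries was 1.61 times higher in the double knockout, as read from the caller's lowest background and the narrowest site of each list. The part of depth in the number of sites was not tested. With the double-knockout list cut to the size of the wild-type list by q, the interior held 416 double-knockout sites against 363 in wild type.

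Site density was counted over 217 Mb, leaving out a stretch of 21.7 Mb around the centromere with no annotated gene. It was 4.75 sites per Mb in the double knockout (4.47 to 5.05) and 1.57 in wild type (1.41 to 1.75). The interiors of the other autosomes and X, pooled, had 2.67 (2.60 to 2.74) and 0.921 (0.883 to 0.960) sites per Mb, so both lists were denser on chromosome 1 than this pooled mean by more than counting error. The caller's background moved with this. It exceeded 2 times its lowest value at 62.9% of interior double-knockout sites against 50.8% of the rest of that list, and at 74.4% of interior wild-type sites against 67.0% of the rest. Its part in the density was not tested.

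A typical interior site was well under 1 kb wide and held fewer than 20 reads at its summit, the base with the most reads. The median width was 394 bp in the double knockout (256 to 3533) and 347 bp in wild type (243 to 3158). The deposited fold enrichment is reads at the summit over the caller's background, with 1 added to each. Its median was 4.80 in the double knockout (2.19 to 22.2) and 5.09 in wild type (3.15 to 27.7). The sites held a median of 18 reads (8 to 176) in the double knockout and 14 (6 to 200) in wild type. Reads of single sites are given as recovered, without scaling for the higher depth of the double knockout, unless stated. All interior sites together covered 491 kb in the double knockout and 160 kb in wild type.

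The short arm (below 122 Mb) and the long arm (above 125 Mb) differed in density by less than counting error in both genotypes. The short arm held 537 double-knockout and 180 wild-type sites, 4.61 per Mb (4.23 to 5.01) and 1.54 per Mb (1.33 to 1.79). The long arm held 514 and 183 sites. Of these, 495 and 162 lay outside the gene-free stretch, which gave 4.92 per Mb (4.49 to 5.37) and 1.61 per Mb (1.37 to 1.88). The long-arm density over the short-arm density was 1.07 in the double knockout (0.943 to 1.21) and 1.04 in wild type (0.838 to 1.30), and both intervals include 1. The arms are also close in gene density, 8.94 protein-coding genes per Mb on the long arm and 8.51 on the short arm. No site lay between the arms as defined.

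Typical sites of the arms were close in strength. The median fold enrichment was 4.75 on the long and 4.92 on the short arm in the double knockout, and 4.97 and 5.26 in wild type. The strongest sites lay on the long arm, but each maximum is 1 site: the highest fold enrichment, 22.2 in the double knockout and 27.7 in wild type, was in DNAH14, and the most reads, 176 and 200, were in the gene-free stretch. Of the double-knockout sites, 22.2% on the long arm (18.7 to 26.0) and 24.4% on the short arm (20.8 to 28.3) overlapped a wild-type site. Of the wild-type sites, 64.5% on the long arm (57.1 to 71.4) and 76.1% on the short arm (69.2 to 82.1) overlapped a double-knockout site. Without the gene-free stretch the long-arm share was 66.0% (58.2 to 73.3). The wild-type share was thus lower on the long arm. The intervals of the arms overlap in both lists, in wild type narrowly, but overlap alone does not show that the shares are equal. The shares of the arms were not tested against each other. The background at sites was also somewhat higher on the long arm, with a median of 2.55 times its lowest value in the double knockout and 2.68 times in wild type, against 2.20 and 2.35 times on the short arm, and its part was not tested.

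**Figure D1:**
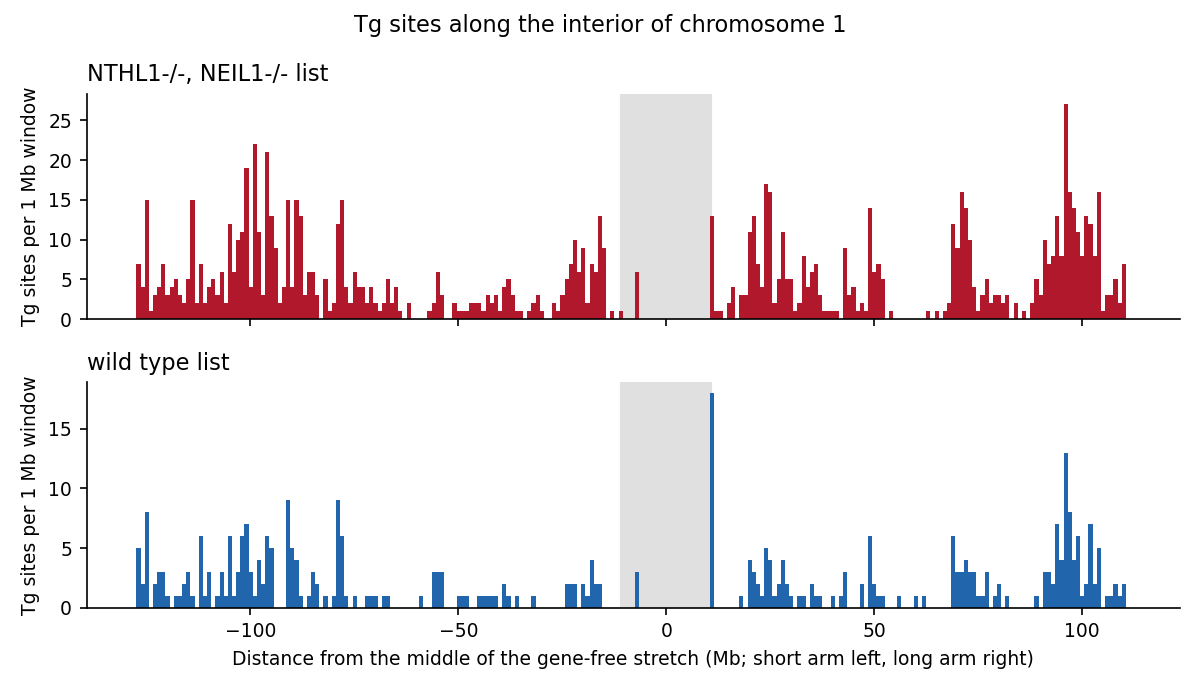
Number of Tg sites per 1 Mb window along the interior of chromosome 1, double knockout above and wild type below, against distance in Mb from the middle of the gene-free stretch (grey). Both lists have many peaks in the same windows, such as that with 27 double-knockout and 13 wild-type sites on the far long arm, and the wild-type maximum of 18 stands at the long-arm edge of the grey stretch.

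Sites were crowded into some windows and missing from others. Of 218 windows of 1 Mb not wholly inside the gene-free stretch, 31 held no double-knockout site, 86 held no wild-type site and 26 held neither. The window chr1:143000001-144000000 was kept, although its 13 double-knockout and 18 wild-type sites all lie inside that stretch. It is the fullest window in wild type, and the values that follow include it. Counts per window had a variance of 5.17 times the mean in the double knockout and 3.42 times in wild type, where independently scattered sites would give about 1. The 10 fullest windows held 17.7% of the sites in the double knockout and 25.6% in wild type. Counts of the lists moved together across windows (Spearman 0.76, Pearson 0.74, n = 218 windows). The windows of a list share its libraries, and neighbouring windows are not independent.

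The fullest window in the double knockout was chr1:228000001-229000000, with 27 double-knockout and 13 wild-type sites. It holds 4 sites of each list in WNT3A, a Wnt ligand. At chr1:33000001-34000000 the lists parted, with 22 double-knockout sites against 1 in wild type. There 10 double-knockout sites and the wild-type site lay in CSMD2, 4 double-knockout sites in the zinc-finger gene ZNF362, 3 in AZIN2, an antizyme inhibitor of polyamine metabolism, and 2 in A3GALT2. The window chr1:18000001-19000000 was similar, with 15 double-knockout sites and 1 in wild type, among them 3 double-knockout sites in TAS1R2 and 2 in PAX7, a transcription factor of muscle stem cells. In the double-knockout list cut to the wild-type size these windows held 16, 6 and 4 sites.

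Other full windows were nearly as full in wild type. At chr1:53000001-54000000 there were 12 double-knockout and 9 wild-type sites, and all 9 wild-type sites were shared. At chr1:41000001-42000000 there were 15 and 9, with 8 and 5 of them in the transcription factor gene HIVEP3. In chr1:143000001-144000000, at the edge of the gene-free stretch, the wild-type list had more sites, 13 in the double knockout against 18 in wild type.

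Windows with more protein-coding genes held more sites. The mean number of double-knockout sites was 0.562 in the 16 windows with no such gene, 3.17 in the 63 windows with 1 to 4, 5.54 in the 65 with 5 to 9, 6.24 in the 55 with 10 to 19 and 7.00 in the 19 with 20 or more. The wild-type means in the same order were 0.312, 1.19, 1.65, 2.36 and 2.26 sites. The class with 1 to 4 genes includes chr1:143000001-144000000, whose 13 double-knockout and 18 wild-type sites all lie inside the gene-free stretch. They raise the means of that class, so which step was the steepest is not settled. In wild type the class with the most genes was not above the one before it. The relation across windows was moderate (Spearman 0.46 in the double knockout and 0.38 in wild type, Pearson 0.33 and 0.22).

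**Figure D2:**
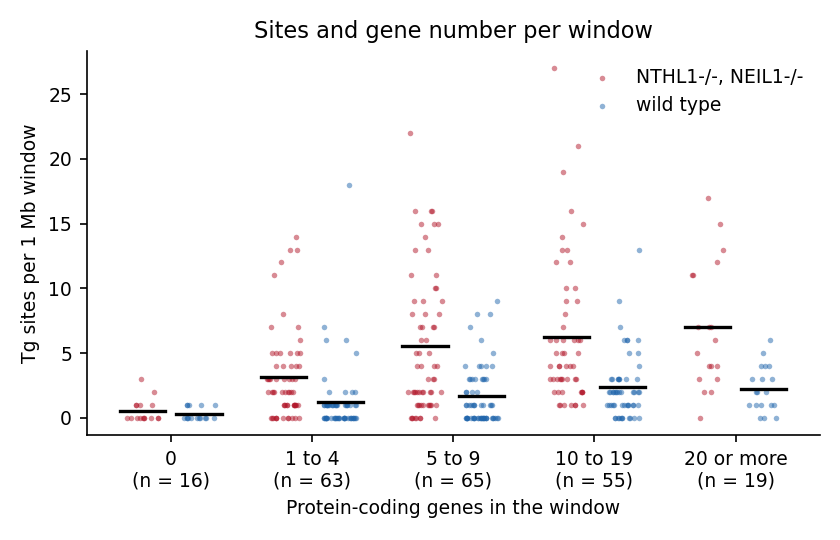
Tg sites per 1 Mb window (vertical axis) by the number of protein-coding genes in the window, one point per window, jittered sideways, with black bars at the means. The double-knockout means climb from 0.562 to 7.00 across the classes and the wild-type means lie between 0.312 and 2.36, with wide scatter inside each class.

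Long gene-poor stretches had no sites. Outside the gene-free stretch, the longest site-free stretch of the double-knockout list ran for 8.75 Mb over chr1:186764092-195517813. This 8.75 Mb contains BRINP3, a gene expressed in neurons, a run of the RGS genes RGS18, RGS21, RGS1, RGS13 and RGS2, and the tumour suppressor gene CDC73. Within it, 3.82 Mb at chr1:188747690-192569296 had no site in either list. In wild type the longest outside the gene-free stretch was 8.18 Mb at chr1:65001678-73183710. It holds 29 protein-coding genes, among them the leptin receptor gene LEPR and NEGR1, a neuronal adhesion gene. NEGR1 also lay in the 5.10 Mb stretch without a site at chr1:70591249-75690240 in the double knockout.

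A minority of interior double-knockout sites and most interior wild-type sites recurred in the other list. Overlap by at least 1 base was found for 245 of 1051 double-knockout sites (23.3%, 20.8 to 26.0), against 28.3% of that list genome-wide. It was found for 255 of 363 wild-type sites (70.2%, 65.3 to 74.9), against 75.3% of that list genome-wide. The lists differ in length, which by itself makes these shares unequal. Outside the interior the shares were 28.9% (27.9 to 29.9) in the double knockout and 75.8% (74.3 to 77.3) in wild type. The double-knockout interval lies below that of the rest of its list, and the wild-type intervals overlap narrowly. That rest includes sites near chromosome ends and on contigs. The shared share of the other chromosomes' interiors was not counted, so these values do not show lower sharing to be particular to chromosome 1.

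The stronger a site, the more often it recurred. Ranked by deposited q in 4 equal groups from weakest to strongest, 10.6%, 11.0%, 24.8% and 46.8% of double-knockout sites were shared. For wild-type sites the shares were 53.8%, 62.6%, 70.0% and 94.5%. Shared double-knockout sites had a median of 24 reads and a width of 532 bp, against 17 reads and 359.5 bp for unshared ones. Shared wild-type sites had a median of 16 reads and 386 bp, against 12 reads and 283 bp.

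**Figure D3:**
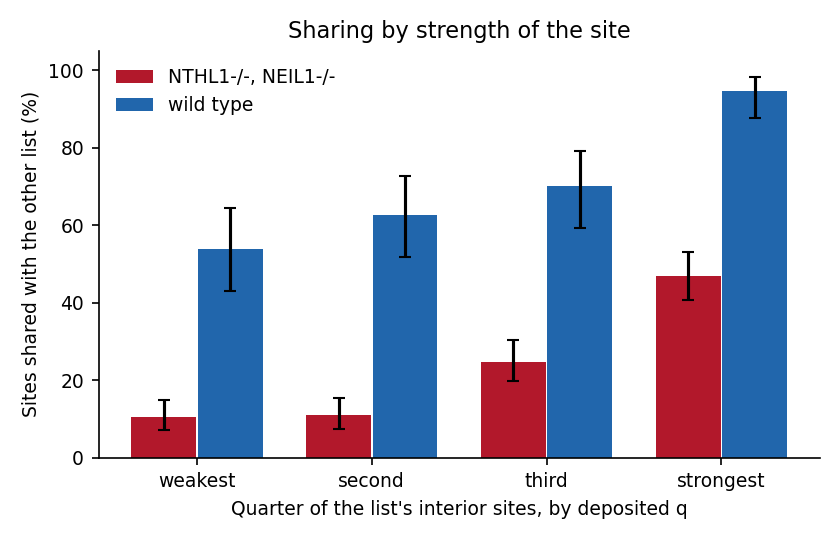
Percent of interior sites that overlap a site of the other list, by 4 equal groups of deposited q from weakest to strongest, with exact 95% Clopper-Pearson intervals. Shares in the strongest group were 46.8% in the double knockout and 94.5% in wild type, above the other groups of the same list.

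Unshared wild-type sites mostly lay close to a double-knockout site. Their median distance was 22.9 kb, and 86 of 108 (79.6%) had a double-knockout site within 100 kb. The 806 unshared double-knockout sites lay a median of 134 kb from the nearest wild-type site, with 43.4% within 100 kb and 58 (7.20%) more than 1 Mb away. The double-knockout list is the denser one, with a median gap between its own neighbouring sites of 74.8 kb against 200 kb in wild type, so these distances are not on an equal footing. The strongest unshared double-knockout site by q was chr1:183705717-183706354 in RGL1, a Ral GTPase exchange factor, with 32 reads and 9.73-fold enrichment. The RGS8 promoter site shown above came close to it with 31 reads. In wild type the strongest was the intergenic site chr1:229183745-229184005, with 16 reads and 7.20-fold enrichment, and inside genes it was chr1:204947736-204948127 in NFASC, a neuronal adhesion gene, with 17 reads.

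At shared sites the median number of reads was nearly equal once depth was taken into account. Only sites listed in both genotypes enter here, with the double-knockout partner of most reads. This choice favours ratios near 1 and leaves out the unshared sites. Double-knockout reads were divided by 1.69, the ratio of depth times fragment length. The ratio of scaled double-knockout to wild-type reads had a median of 0.936 over 255 shared wild-type sites (interquartile range 0.752 to 1.12, full range 0.361 to 2.07), and 151 of them lay below 1. Scaled by depth alone the median was 0.986. The rest of the genome had 0.945 over 2521 sites. On the long arm the median was 0.950 over 118 sites and on the short arm 0.923 over 137.

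A small group of sites departed from this. In the gene-free stretch 11 shared wild-type sites had a median ratio of 0.591 (0.505 to 0.680), every one below 1, and 0.623 with depth alone. At these pairs the scaled background ratio was close to 1, with a median of 0.949 (0.906 to 0.994). Such sites are rich in reads, with a median of 45 in the double knockout and 42 in wild type. Elsewhere in the interior, the 57 pairs with at least as many wild-type reads as the weakest of the 11 had a median ratio of 0.862 (0.510 to 1.37). Their median was 23 wild-type reads against the 42 of the 11, so the 2 sets were not matched in reads. The region is rich in repeated satellite sequence, so a position there may stand for more than 1 place in the genome, and the part of this in the ratio was not tested.

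The site with the most reads in the interior was in this group. It had 176 reads (Poisson interval 151 to 204) at chr1:125179949-125180390 in the double knockout, with a fold enrichment of 2.36 over a background of 74.1, against 200 reads (173 to 230) at chr1:125179455-125180413 in wild type, with a fold enrichment of 4.33 over a background of 45.4. The sites between chr1:143184936 and chr1:143266664 had a median fold enrichment of 3.13 in the double knockout and 4.26 in wild type. Their median background was 7.00 and 7.21 times the lowest of each list, against 2.23 and 2.68 times over all interior sites.

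**Figure D4:**
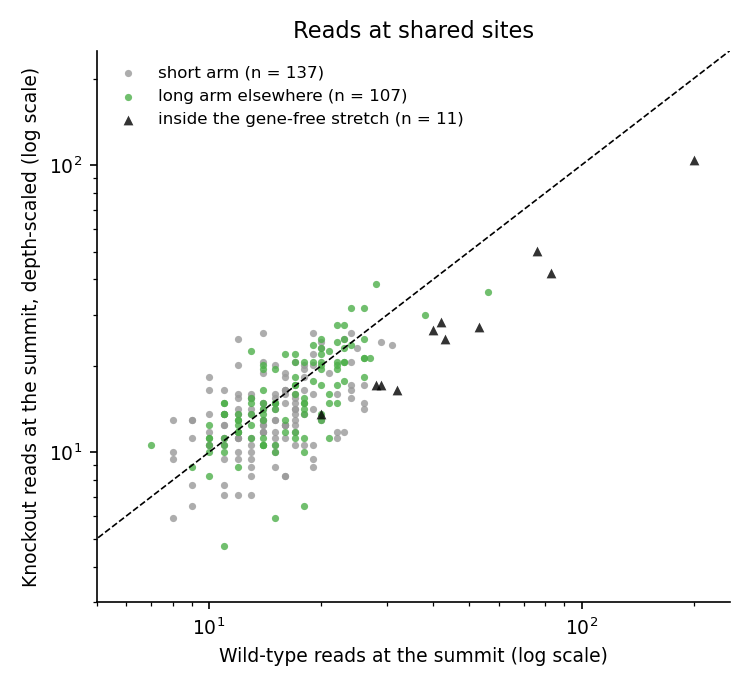
Reads at the summit of each shared site in wild type (horizontal) and in the double knockout after division by 1.69 (vertical), both on log scales, with the line of equality dashed. The 11 pairs inside the gene-free stretch (triangles) all lie under the line, and the other 244 pairs scatter on both sides of it.

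The site of highest fold enrichment lay in DNAH14, a dynein heavy chain gene of cilia, in both genotypes. It had 61 reads and 22.2-fold enrichment at chr1:225078622-225079052 in the double knockout, and 56 reads and 27.7-fold enrichment at chr1:225078631-225079114 in wild type. By q it ranked 15 in the whole double-knockout list and 14 in the whole wild-type list. The background there was low, 1.80 and 1.06 reads. After division by 1.69 the double-knockout reads came to 36.0, below the 56 of wild type. A site in ST6GALNAC3, a sialyltransferase gene, was also found in both, with 29 reads (17.1 after scaling) at chr1:76285710-76286140 in the double knockout and 26 reads at chr1:76285651-76286022 in wild type. In RGS7, another regulator of G-protein signalling, the shared site at chr1:241306110-241306835 had 54 reads (31.9 after scaling) in the double knockout against 26 in wild type.

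Sites fell in genes about as often as the length of genes would give. Protein-coding genes, with 1 kb added at each end, took 51.0% of interior sites in the double knockout (47.9 to 54.1) and 49.9% in wild type (44.6 to 55.1), and with the gene-free stretch left out the shares were 51.9% (48.8 to 55.0) and 52.9% (47.5 to 58.3). The same span makes up 50.5% of the interior outside that stretch. Genes of other kinds took 10.7% and 9.92%, and 38.3% and 40.2% lay between genes. The kilobase around gene ends held 3.81% of double-knockout sites (2.73 to 5.15) and 2.20% of wild-type sites (0.956 to 4.30). Outside the gene-free stretch these shares were 3.88% and 2.34%, and the span makes up 3.18% of that length. None of the 108 unshared wild-type sites lay there, with an upper limit of 3.36%. Exons, introns and untranslated regions were not separated here.

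At least 1 site was found in 310 of 1892 protein-coding genes in the double knockout (16.4%) and in 127 in wild type (6.71%). Genes with a site in both lists numbered 107, which is 34.5% of the double-knockout genes and 84.3% of the wild-type genes. The others were 203 genes with double-knockout sites alone and 20 with wild-type sites alone. Genes with sites were long, with a median of 60.3 kb in the double knockout and 66.1 kb in wild type, against 24.9 kb for all interior genes. Most genes hit had 1 site, 198 in the double knockout and 100 in wild type.

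CAMTA1, a calmodulin-binding transcription activator expressed in brain, had the most sites in both lists, 14 in the double knockout and 8 in wild type. At the mean density of the interior its 984 kb would hold 4.68 and 1.55. Of its wild-type sites, 7 were shared. They fell in clusters, such as chr1:7498195-7499164 with 22 reads in the double knockout and chr1:7498251-7499351 with 15 in wild type. CACNA1E, the pore-forming subunit of R-type calcium channels, had 11 and 4 sites, where its length would hold 2.33 and 0.772. All 4 of its wild-type sites were shared and lay between chr1:181426251 and chr1:181476170, while its double-knockout sites ran along most of the gene. TNR, the matrix protein tenascin-R of the nervous system, had 8 and 3 sites. HIVEP3 had 8 and 5, with 4 of its wild-type sites between chr1:41526680 and chr1:41532392.

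Genes under 100 kb with several sites were AHDC1, a gene for a DNA-binding protein, with 6 double-knockout and 4 wild-type sites in 70.0 kb, and WNT3A with 4 and 4 in 54.3 kb. All 4 WNT3A sites were shared, and the strongest, chr1:228046239-228046956, had 42 reads in the double knockout against 26 reads in wild type. TAS1R2, a subunit of the sweet taste receptor, had 3 double-knockout sites and no wild-type site in 20.1 kb, all between chr1:18855320 and chr1:18858657. With 3 or more sites, this was the highest density per gene length in the double knockout, 15.0 per 100 kb. MAB21L3 had 3 and 1 sites and GPA33, a surface antigen of gut epithelium, also 3 and 1.

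**Figure D5:**
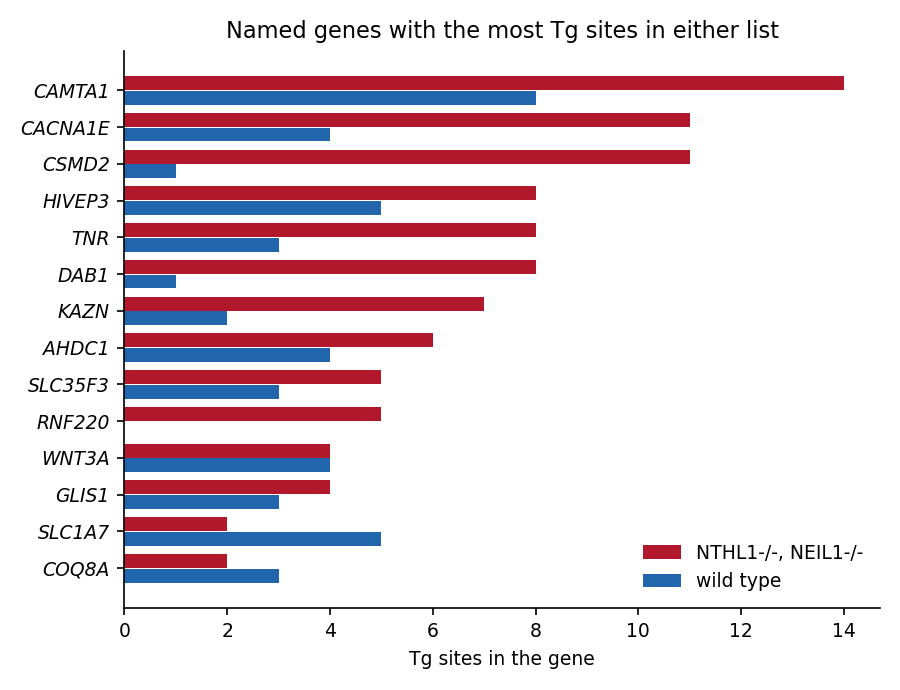
Number of Tg sites in the genes named for having the most sites in either list, double knockout above wild type in each pair of bars. CAMTA1 leads both lists with 14 and 8 sites, CSMD2 and DAB1 have 1 wild-type site each, and RNF220 has none. SLC1A7 and COQ8A have more wild-type sites, but in both genes several of these overlap the same double-knockout site.

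Some genes had 3 or more sites in the double knockout and 1 or none in wild type. CSMD2, a large membrane protein gene, had 11 double-knockout sites against 1 in wild type, where its length would hold 3.10 and 1.03. Its double-knockout sites were spread between chr1:33644413 and chr1:34022800 with 10 to 29 reads each. DAB1, an adaptor of reelin signalling, had 8 against 1 over 1550 kb, and its length alone would hold 7.37 and 2.44. RNF220, a ubiquitin ligase, had 5 against 0, with 11 to 31 reads, and the wild-type density would give it 0.389. EDARADD, the adaptor of the ectodysplasin receptor, SUSD4 and ZNF362 had 4 against 0 each, and EPHA10, an ephrin receptor, had 3 against 0. The wild-type density would give these genes only 0.215, 0.227, 0.273 and 0.0807 sites, so 0 wild-type sites in them says little. In all, 10 genes had 3 or more double-knockout sites and no wild-type site. In the double-knockout list cut to the wild-type size, CSMD2 kept 2 sites, DAB1 4, RNF220 3, SUSD4 2, and EDARADD, ZNF362 and EPHA10 1 each.

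The reverse was rare. LMNA, the lamin A/C gene, and GIPC2 were the only genes with 2 or more wild-type sites and no double-knockout site, and their sites held 12 to 15 reads. COQ8A, a gene of coenzyme Q synthesis, had 2 double-knockout against 3 wild-type sites. However, 2 of the wild-type sites overlapped the same double-knockout site, chr1:226978160-226978907. The covered length of COQ8A was 1150 bp in the double knockout and 946 bp in wild type. SLC1A7, a retinal glutamate transporter, had 2 against 5, but the covered length was nearly equal, 5948 bp in the double knockout and 5576 bp in wild type. Its double-knockout sites were among the widest of the interior, 3533 bp with 44 reads at chr1:53095545-53099077 and 2415 bp with 42 reads at chr1:53099479-53101893. All 5 wild-type sites overlapped them. GLIS1, a zinc-finger transcription factor in the same window, had 4 and 3 sites, and SLC35F3, a transporter gene, 5 and 3.

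Gene families of the chromosome were read against the shares for all genes, 16.4% and 6.71%, and against the number of sites that their length would hold at the interior density. Of 4 WNT genes, 3 had a double-knockout site and 2 a wild-type site: besides WNT3A these were WNT9A, with 37 reads at chr1:227938163-227938707 in the double knockout against 20 reads at chr1:227938318-227938609 in wild type, and WNT2B with 1 double-knockout site. The family held 6 and 5 sites, where its length would hold 0.822 and 0.272, and WNT3A alone had 4 of each. Of 14 potassium channel genes, with a median length of 66.1 kb, 5 and 3 had one. Their 9 double-knockout and 4 wild-type sites were close to the 8.85 and 2.93 that their length would hold. KCNAB2, a channel beta subunit, had 2 and 2 sites, KCNA2 1 and 1, KCNN3 2 and 1, KCND3 2 and 0 and KCNK1 2 and 0. Of 6 kinesin-named genes, 3 and 1 had one, the strongest being KIF21B with 38 reads at chr1:201006570-201008000 in the double knockout against 21 reads at chr1:201006886-201007951 in wild type. The kinesin-named genes held 4 and 1 sites, where their length would hold 2.58 and 0.855. Of 11 genes named RGS, RGSL1 being matched by name alone, 3 and 1 had a site, namely RGS7, RGS8 and RGSL1 in the double knockout and RGS7 in wild type. They held 6 and 1 sites, where their length would hold 5.26 and 1.74.

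Among 12 long genes known from fragile sites or similar in length, 9 had a double-knockout and 5 a wild-type site, 41 and 13 sites in all. Their length alone would hold 43.9 and 14.6 at the interior density, so as a group they held no more than their length. Within the group the sites were uneven. CAMTA1, CSMD2 and DAB1 held most of them, and AGBL4 of 1500 kb, NEGR1 of 887 kb and RYR2, the cardiac ryanodine receptor, of 792 kb held none in either list.

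Several lists of genes had no site in either list of sites. They were 50 genes named S100A, LCE, SPRR, FLG, LORICRIN or IVL, most of the epidermal differentiation cluster, the 18 complement genes and regulators, the 7 guanylate-binding protein genes, the 16 histone genes, and 6 genes of the collagen search, which also took in the glycosyltransferase COLGALT2. The mean density would give 1.25 and 0.416 sites to the S100 and epidermal genes, 3.42 and 1.13 to the complement genes, 0.722 and 0.239 to the guanylate-binding protein genes, 0.323 and 0.107 to the histone genes and 4.12 and 1.36 to the collagen genes. The cluster itself was not free of sites: RPTN, the epidermal gene for repetin, which the name search left out and which was looked up after its values were seen, had 2 double-knockout sites and 1 wild-type site. The 23 genes of segmental duplications, NBPF, NOTCH2NL, SRGAP2, NOTCH2 and PDE4DIP, also held none, where the mean density would give 11.1 in the double knockout and 3.68 in wild type. These genes have near-identical copies, and the treatment of reads that map to several places is not given in the sources used here, so its part was not tested. Of 16 Fc receptor genes, FCRL5 had 2 double-knockout sites and FCMR 1 wild-type site, where the mean density would give 1.47 and 0.486. Of 5 PADI genes, PADI2 had 1 double-knockout and PADI1 1 wild-type site, where it would give 1.02 and 0.337. With so few sites, a site in 1 list alone says little.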

How the data were processed

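Tg was mapped by DPC-Seq in 6 libraries, 2 labelled and 1 input per genotype. The authors deposited 1 site list per genotype. The pooling of libraries and the control are not stated. The build was hg38 and the tools named are deepTools, bedtools, MACS2 and Bowtie2, per the submitters' processing notes, without versions or roles. The deposited score was 10 times the −log10 q, rounded down. The deposited fold enrichment is a ratio of summit reads to background, with 1 added to each. The deposited −log10 p and −log10 q, with q below 0.05, are the caller's. These values describe sites within their list only.

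Whole reads and background were solved from fold and −log10 p. They matched within 0.001 at all 9373 double-knockout and 3688 wild-type sites. The lowest backgrounds, 1.25 in the double knockout and 0.739 in wild type, gave a ratio of 1.69 for depth times fragment length. The narrowest sites, 256 and 243 bp, were taken as fragment lengths, and division by their ratio gave a depth ratio of 1.61. Total reads per library are unknown, and amplified reads are not independent molecules. The scripts were tested on simulated data. Python 3.11.15, pandas 2.3.3, numpy 2.4.6 and scipy 1.17.1 were used. Shares have exact Clopper-Pearson and numbers exact Poisson 95% intervals. No test between genotypes was made.

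A site was placed in a gene or window by its midpoint, and was shared when it overlapped the other list by 1 bp. A gene-free stretch is over 2 Mb without a RefSeq gene of GRCh38.p14, whose primary coordinates are those of hg38. At a shared wild-type site the overlapping double-knockout site with the most reads was used. Genes were named by most sites, most sites per 100 kb with at least 3 sites, largest difference in share of the list, family lists, and the strongest sites and fullest windows. A result that met this rule is not reported here. The members and lists were chosen with earlier results of these data known. Alternatives varied q, list size, the end distance, clustering, overlap, scaling, window width and arm length.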

Additional observations from a re-analysis of the deposited data

How the results depend on the processing

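Of 99 alternative values, 76 stayed close to the value reported and 23 moved, without replicates to judge them by. Site numbers were judged by a fixed factor, the reads ratio by an interval of its median over sites, and the rest by counting error. With the double-knockout list cut to the wild-type size, the interior held 416 double-knockout sites, of which 39.9% were shared (48.8% of wild-type sites) and 54.3% lay in genes, 62.4% of windows had a double-knockout site, and the reads ratio at shared sites was 1.02. With −log10 q of at least 5, 659 double-knockout and 174 wild-type sites remained, 18.2% of the double-knockout sites were shared, and 72.0% and 39.9% of windows had a site. With sites within 100 kb counted once, 453 and 228 remained, the double-knockout interior share was 9.86%, its long-arm share 45.0% and its arm density ratio 0.940. Over whole arm length that ratio was 0.941. The arm ratio also turned at 1 Mb from the ends (0.986 in the double knockout, 0.933 in wild type) and, in wild type, with −log10 q of at least 5 (0.934), so it has no settled direction. At 1 Mb from the ends the double-knockout share was 11.9%. With 50% overlap of both sites, 18.2% of double-knockout and 52.6% of wild-type sites were shared. Scaled by depth alone the reads ratio was 0.986. In 5 Mb windows, 97.8% had a double-knockout and 91.1% a wild-type site. Apart from the alternatives built from fewer sites or other units, the cause was not tested. Summits of about 18 and 14 reads limit every site's precision. No paired analysis was possible because each genotype has 1 list for its 2 labelled libraries.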

Other observations

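Sequence assigned to chromosome 1 outside its main assembled sequence also held sites. The unlocalised contig 1_KI270709v1_random had 4 sites in each list, with up to 46 reads and 3.07-fold enrichment in the double knockout and up to 53 reads and 5.31-fold enrichment in wild type. The alternate contig 1_KI270892v1_alt had 1 site in each list, with 18 reads in the double knockout and 13 reads in wild type. These sites are not among the interior sites.

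The ratio of double-knockout to wild-type sites varied along the chromosome in 10 Mb blocks. Over the whole interior it was 2.90. Among blocks with at least 10 wild-type sites it was highest, 4.85, from 110 to 120 Mb, with 63 double-knockout and 13 wild-type sites. It was lowest, 1.17, from 140 to 150 Mb, with 21 and 18. From 30 to 40 Mb, the block with the most double-knockout sites, it was 3.38, with 115 and 34. The wild-type list supplied 17.1% of the sites from 110 to 120 Mb (9.43 to 27.5) and 46.2% from 140 to 150 Mb (30.1 to 62.8). All 18 wild-type sites from 140 to 150 Mb lay inside the gene-free stretch. The highest and lowest blocks were picked from many, and their intervals do not allow for that choice. Whether a block departs from the interior was not tested.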
